A study of Mus musculus with 52 samples.

Results

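The Kruppel-like factors (KLFs) are a family of DNA-binding proteins, and 10 of their genes, Klf2, Klf4, Klf5, Klf6, Klf7, Klf9, Klf10, Klf13, Klf15 and Klf16, were described here in mouse neurons. They were taken by name from a table of RNA polymerase II (Pol II) density at transcription start sites (TSSs), in which each of the 10 has 1 window of 600 bp among 24194 gene symbols. A second table gives H3K27ac, the acetylated form of lysine 27 on histone H3 that is found at enhancers and promoters in use, for 940 enhancer regions. Of these regions, 4 have a member as their nearest gene, and the gene is Klf4 in each.

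Both marks were measured by chromatin immunoprecipitation with sequencing (ChIP-seq) in cultured primary neurons from CD1 mice, an outbred stock. Neurons were given neuronal activity in U0126, which inhibits the kinases MEK1 and MEK2 upstream of ERK, or in DMSO as vehicle, and the stimulus is not named in the labels. Pol II was measured, in U0126 and in vehicle, in neurons left unstimulated for 1 h, at 1, 10, 30 and 60 min of activity, in neurons left unstimulated for 6 h, and at 180 and 360 min. H3K27ac was measured, in U0126 and in vehicle, without stimulation and at 10, 30 and 60 min. No group carries a mutation or transgene, and neither the brain region nor the age of the mice is in the labels. The 31 Pol II and 16 H3K27ac libraries make up 2 per group, with a single one for Pol II at 180 min in U0126. The labels do not say that libraries of a group came from separate cultures, so p-values measure the spread between these libraries, which may be technical.

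KLF proteins bind GC-rich and CACCC elements through zinc fingers at their carboxyl end, and differ in the rest of the protein. Klf2, Klf4, Klf5, Klf6 and Klf7 carry activation domains, and several of them can also repress. Klf9, Klf10, Klf13 and Klf16 bind the corepressor Sin3A through their amino end, and Klf15 is best known as a regulator of metabolism that glucocorticoids induce. In rodent neurons, Klf4 and Klf9 restrain neurite and axon growth, and Klf6 and Klf7 favour it. Pol II at a start site is polymerase that has been recruited or is paused there, so its density is not a measure of finished RNA. In a culture, fewer cells with polymerase at a gene and less polymerase per cell cannot be told apart.

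The proximal promoters of 4 members are shown because the results below turn on them. Klf4 and Klf9 are the members that passed the test for activity, Klf2 had the lowest p of the family late in activity, and the start site of Klf13 is among the control sites that the authors used for normalization. The sequences are from RefSeq and run 5′ to 3′ from 250 bases before to 50 bases after the annotated start of transcription. Their build is newer than mm9, the build of the measured windows, and no coordinates were converted. Capitals mark the half-site of the cAMP response element (TGACG, or CGTCA on the other strand) and, in Klf2, a match to the MEF2 consensus.
Klf4 (GRCm38.p6 chr4:55532426-55532725, minus strand): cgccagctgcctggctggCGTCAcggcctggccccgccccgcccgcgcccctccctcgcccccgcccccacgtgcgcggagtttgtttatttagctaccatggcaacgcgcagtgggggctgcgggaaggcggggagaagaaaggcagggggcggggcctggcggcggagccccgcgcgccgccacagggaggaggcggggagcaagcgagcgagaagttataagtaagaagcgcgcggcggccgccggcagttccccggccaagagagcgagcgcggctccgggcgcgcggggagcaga
Klf9 (GRCm38.p6 chr19:23140976-23141275, plus strand): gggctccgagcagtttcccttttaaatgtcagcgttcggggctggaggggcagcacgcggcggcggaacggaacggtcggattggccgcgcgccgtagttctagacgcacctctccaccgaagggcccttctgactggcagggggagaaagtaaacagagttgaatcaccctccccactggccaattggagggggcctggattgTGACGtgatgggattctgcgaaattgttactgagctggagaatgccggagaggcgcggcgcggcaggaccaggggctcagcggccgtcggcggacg
Klf13 (GRCm38.p6 chr7:63938866-63939165, minus strand): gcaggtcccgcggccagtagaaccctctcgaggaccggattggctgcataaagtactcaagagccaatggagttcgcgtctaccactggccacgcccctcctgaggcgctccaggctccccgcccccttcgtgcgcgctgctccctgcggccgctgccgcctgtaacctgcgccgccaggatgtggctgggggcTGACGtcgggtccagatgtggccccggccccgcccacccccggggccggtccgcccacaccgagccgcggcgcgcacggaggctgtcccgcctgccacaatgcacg
Klf2 (GRCm38.p6 chr8:72318812-72319111, plus strand): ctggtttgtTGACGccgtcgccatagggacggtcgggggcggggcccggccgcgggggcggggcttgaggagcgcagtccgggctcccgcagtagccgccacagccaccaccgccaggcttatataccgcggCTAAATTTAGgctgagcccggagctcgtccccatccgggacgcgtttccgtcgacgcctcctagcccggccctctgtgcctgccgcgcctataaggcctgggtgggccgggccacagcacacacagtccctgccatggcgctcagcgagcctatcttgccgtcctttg

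RefSeq promoters were at hand for 7 of the 10 members, those of Klf2, Klf4, Klf6, Klf7, Klf9, Klf13 and Klf15. The half-site occurred in 5 of these 7 on either strand, with 2 sites in Klf15, 1 each in Klf2, Klf4, Klf9 and Klf13, and none in Klf6 and Klf7. Of all 32851 promoters of this length, 20.8% hold it. The full element TGACGTCA, which contains the half-site, was in none of the 7 and is in 1.79% of promoters. A match to the MEF2 consensus was found in Klf2 alone among the 7 and is in 3.19% of promoters. The CArG box, the element of SRF, was in none of the 7 and is in 1.63% of promoters. The letters TGANTCA, a looser form of the AP-1 motif with any middle base, were in Klf9 alone and are in 7.81% of promoters. The Klf9 match reads TGAATCA, while the AP-1 motif has C or G in the middle, so it is not a full AP-1 match. The GC box GGGCGG, searched on both strands, was in 6 of the 7 promoters, with 4 sites in Klf4 and none in Klf9, and is in 35.7% of all promoters. The CACCC box was in 5 of the 7 and is in 57.5% of all promoters, and Klf4 and Klf6 hold none. A match of letters is a description of the window and does not show that a factor binds there.

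The tables hold normalized values and no read counts, so the sequencing depth cannot be told and counting intervals are not given. Summed Pol II density per library was between 15568 and 18507, and no member was at 0 in any library. Windows at 0 made up 0.723% to 11.5% of a library. Their share was highest in replicate 1 at 30 min, with 9.52% in U0126 and 11.5% in vehicle. Replicates correlated across genes with Pearson's r between 0.75 and 0.86 for Pol II, and between 0.30 and 0.80 across regions for H3K27ac. Of 12 neuronal marker genes, 11 passed the filter on density described below. This held for 3 of 8 astrocyte, 4 of 8 oligodendrocyte-lineage, 0 of 8 microglial, 0 of 8 endothelial and 1 of 8 fibroblast and mural markers, and no marker was at 0. Summed density of the neuronal markers was between 12.7 and 17.4 in U0126 and between 14.1 and 18.1 in vehicle at 10 to 60 min of activity, against 10.9 and 13.0 in U0126 and 12.4 and 12.8 in vehicle in unstimulated neurons of 1 h. The astrocyte sum was between 3.59 and 6.13 in U0126 and between 3.67 and 6.18 in vehicle with activity, against 3.86 to 4.13 in U0126 and 3.86 to 4.40 in vehicle without it, so those groups overlapped.

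All 10 start sites carried Pol II, with Klf6 at the top of the order and Klf15 at the bottom. Densities are the authors' normalized values per window of equal length, so they can be compared between genes. Klf6 was highest with 2.34 ± 0.375 (mean ± SD over 31 libraries), at percentile 97.3 of all genes. Below it stood Klf10 with 1.33 ± 0.320, Klf13 with 1.28 ± 0.253, Klf7 with 1.11 ± 0.260 and Klf9 with 1.08 ± 0.336. Klf2 followed with 0.889 ± 0.277, then Klf5 with 0.820 ± 0.212, Klf16 with 0.796 ± 0.283 and Klf4 with 0.744 ± 0.337. Klf15 was lowest with 0.385 ± 0.172, at percentile 54.0. The step from Klf6 to Klf10 (1.00) was 2.68 times the larger SD of the pair and that from Klf4 to Klf15 (0.360) was 1.07 times it, and every other step between neighbours was smaller than the larger SD. All 10 members passed the filter on low density, which kept the upper 50% of genes by mean density (at least 0.301), 12097 genes in all.

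**Figure D1:**
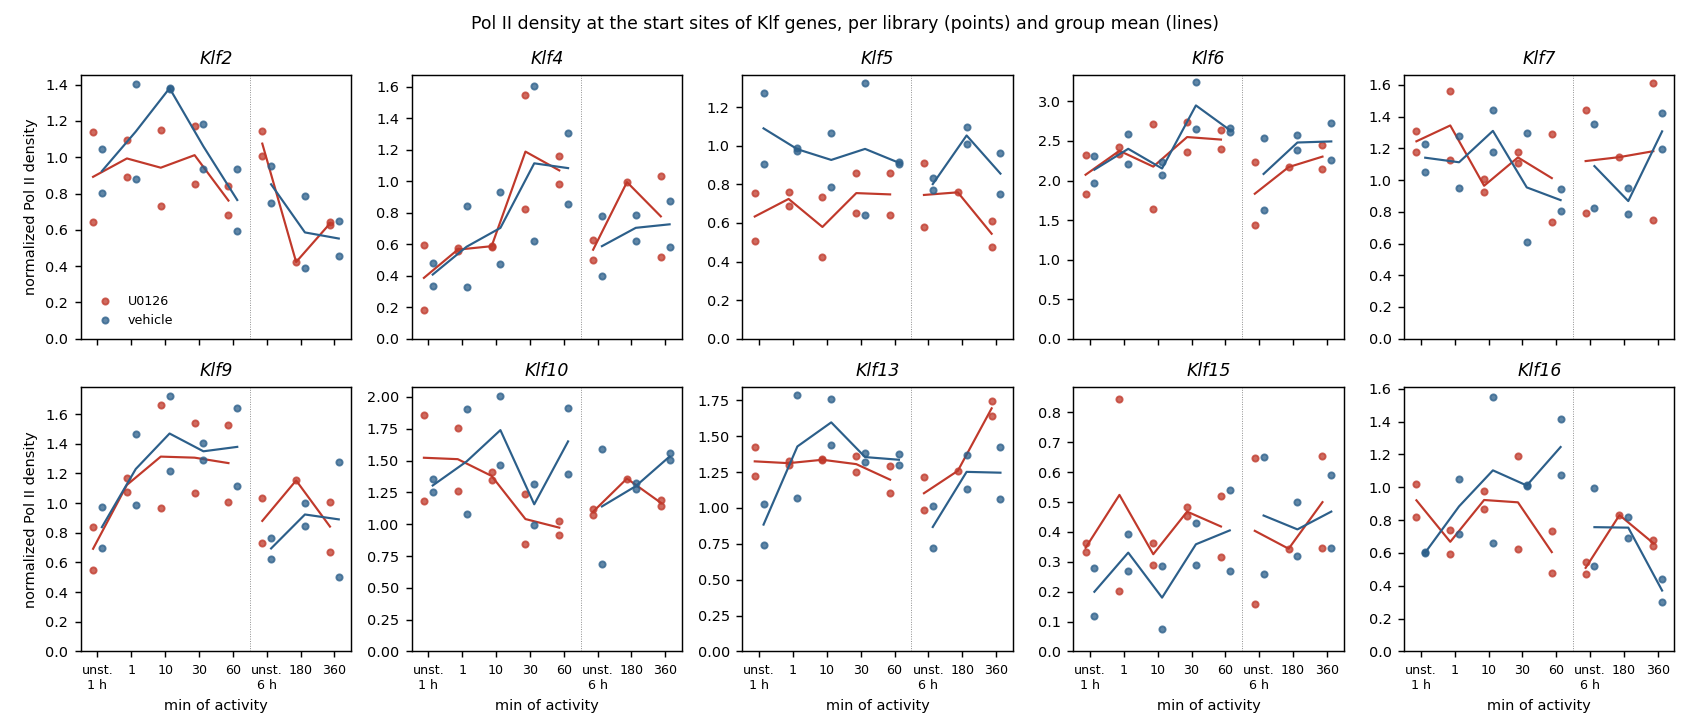
Normalized Pol II density (y axis, each panel on its own scale from 0) at the start sites of 10 Klf genes by min of activity (x axis, with unstimulated neurons of 1 h and 6 h) in U0126 (red) and vehicle (blue); points are libraries and lines join group means. The group means of Klf4 and Klf9 stand higher at 10 to 60 min than in unstimulated neurons of 1 h in both arms, Klf5 means are lower in U0126 in every condition, and Klf2 is lower at 180 and 360 min.

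Activity was asked about by comparing each time with unstimulated neurons, on log2(density + 0.148) after each library was centred on its median. A gene was called at a Benjamini-Hochberg adjusted p under 0.05 from limma over all 12097 genes. Averaged over 10, 30 and 60 min and over both arms, Pol II rose at Klf4 and Klf9, by 0.98 and 0.69 on the log2 scale. No other member was called. Values were positive for 7 of 10 members (6 with quantile normalization), beside 53.1% of all genes. These 2 calls among 10 members compare with 6.13% of all genes called, 5.26% as higher, and the same 2 members and 19.7% of genes had an unadjusted p under 0.05. The average over both arms was chosen after the data were seen. Within each arm the same averages called 0 of 10 members by limma, against 0.364% of genes called in U0126 and 1.07% in vehicle. At an unadjusted p under 0.05 there were 2 of 10 members in U0126 (10.1% of all genes) and 4 of 10 in vehicle (14.5% of all genes). These fits leave out the replicate number. With that number added as a block, Klf4 was called in each arm, as given in the closing section with the number of genes then called.

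Klf4, which in mice is known for its part in pluripotency and as a brake on axon growth, was among the start sites that the authors marked as rapid activity-regulated sites. In U0126 its density was 0.591 and 0.583 at 10 min, 1.55 and 0.826 at 30 min and 1.16 and 0.980 at 60 min, against 0.181 and 0.592 in unstimulated neurons of 1 h. In vehicle it was 0.932 and 0.475 at 10 min, 1.61 and 0.621 at 30 min and 1.31 and 0.857 at 60 min, against 0.332 and 0.482 in unstimulated neurons of 1 h. At 10 min both arms overlapped with their unstimulated libraries, so over 10 to 60 min Klf4 was not separated from them in either arm. At 30 and 60 min alone every library was above both unstimulated libraries of its arm. The share of all genes with such an order at these times was not counted. The highest density in each arm came from the 30 min library of replicate 1, the library with the most windows at 0 in that arm. The mean log2 difference over 10 to 60 min was 1.06 in U0126 (SE 0.342, adjusted p = 0.184) and 0.91 in vehicle (SE 0.342, adjusted p = 0.197), and over both arms it was 0.98 (SE 0.242, 95% interval 0.49 to 1.47, adjusted p = 0.0110). By time, the log2 difference was 0.55, 0.56, 1.36 and 1.24 at 1, 10, 30 and 60 min in U0126, and 0.31, 0.56, 1.05 and 1.11 at the same times in vehicle. Of the 18 rapid sites tested, 10 had a vehicle log2 difference at or above that of Klf4, Klf4 included, and their median was 0.98.

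The call for Klf4 was kept, at 0.82 with an adjusted p of 0.0420, when both 30 min libraries of replicate 1 were left out. It was lost without the unstimulated 1 h library of replicate 1 in U0126 (0.69, adjusted p = 0.217) and without that in vehicle (0.88, adjusted p = 0.112). Late in activity Klf4 was not called, with a log2 difference over both arms of 0.32 (SE 0.267, adjusted p = 0.858). It had 0.994 in U0126 at 180 min and 1.03 and 0.521 at 360 min, against 0.628 and 0.501 in unstimulated U0126 neurons of 6 h. In vehicle it had 0.623 and 0.785 at 180 min and 0.871 and 0.581 at 360 min, against 0.776 and 0.399 without stimulation. Libraries with late activity overlapped with the unstimulated ones in both arms.

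Klf9, which thyroid hormone and glucocorticoids induce and which represses transcription through Sin3A, separated libraries with activity from unstimulated ones in both arms. In U0126 its density was 1.66 and 0.965 at 10 min, 1.07 and 1.54 at 30 min and 1.53 and 1.01 at 60 min, against 0.838 and 0.547 in unstimulated neurons of 1 h. In vehicle it was 1.72 and 1.22 at 10 min, 1.29 and 1.41 at 30 min and 1.64 and 1.12 at 60 min, against 0.977 and 0.699 in unstimulated neurons of 1 h. All 6 libraries with activity lay above both unstimulated libraries in each arm. Klf9 was the only one of the 10 members for which this held in both arms, and it held for 4.06% of all genes. The mean log2 difference was 0.74 in U0126 (SE 0.267, adjusted p = 0.251) and 0.63 in vehicle (SE 0.267, adjusted p = 0.260), and over both arms it was 0.69 (SE 0.189, 95% interval 0.30 to 1.07, adjusted p = 0.0238). At 1 min the log2 difference was 0.63 in U0126, where no test was made, and 0.47 in vehicle (SE 0.327, limma unadjusted p = 0.157). At 1 min in vehicle no gene was called by limma and 3.43% of genes had an unadjusted p under 0.05. Both values at 1 min use the same unstimulated libraries as the averages over 10 to 60 min.

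The value for Klf9 was 0.74 with an adjusted p of 0.0277 without both 30 min libraries of replicate 1. The call was lost when any 1 of the 4 unstimulated 1 h libraries was left out: without replicate 1 in U0126 the adjusted p was 0.0521, without replicate 2 in U0126 it was 0.168, without replicate 1 in vehicle it was 0.0585 and without replicate 2 in vehicle it was 0.139. The log2 difference then ran between 0.56 and 0.81. With quantile normalization the adjusted p was 0.0522. The neuronal marker sums given above were also higher with activity in vehicle, where the groups did not overlap, while in U0126 the groups overlapped. The part of these markers in the Klf4 and Klf9 results was not tested.

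U0126 was asked about by comparing it with vehicle at the same times. Over 10 to 60 min 0 of 10 members were called by limma, against 0.0165% of all genes, and 2 of 10 had an unadjusted p under 0.05, against 2.97% of all genes. For the members called with activity, U0126 minus vehicle was -0.0026 on the log2 scale for Klf4 (95% interval -0.49 to 0.49). It was -0.11 for Klf9 (95% interval -0.50 to 0.27). The difference between the activity responses of the arms, U0126 minus vehicle, was 0.15 for Klf4 (95% interval -0.83 to 1.13) and 0.12 for Klf9 (95% interval -0.65 to 0.89). Differences of these widths do not show that both arms respond alike. No gene was called for this difference between responses by limma, and 2.44% of genes had an unadjusted p under 0.05.

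**Figure D2:**
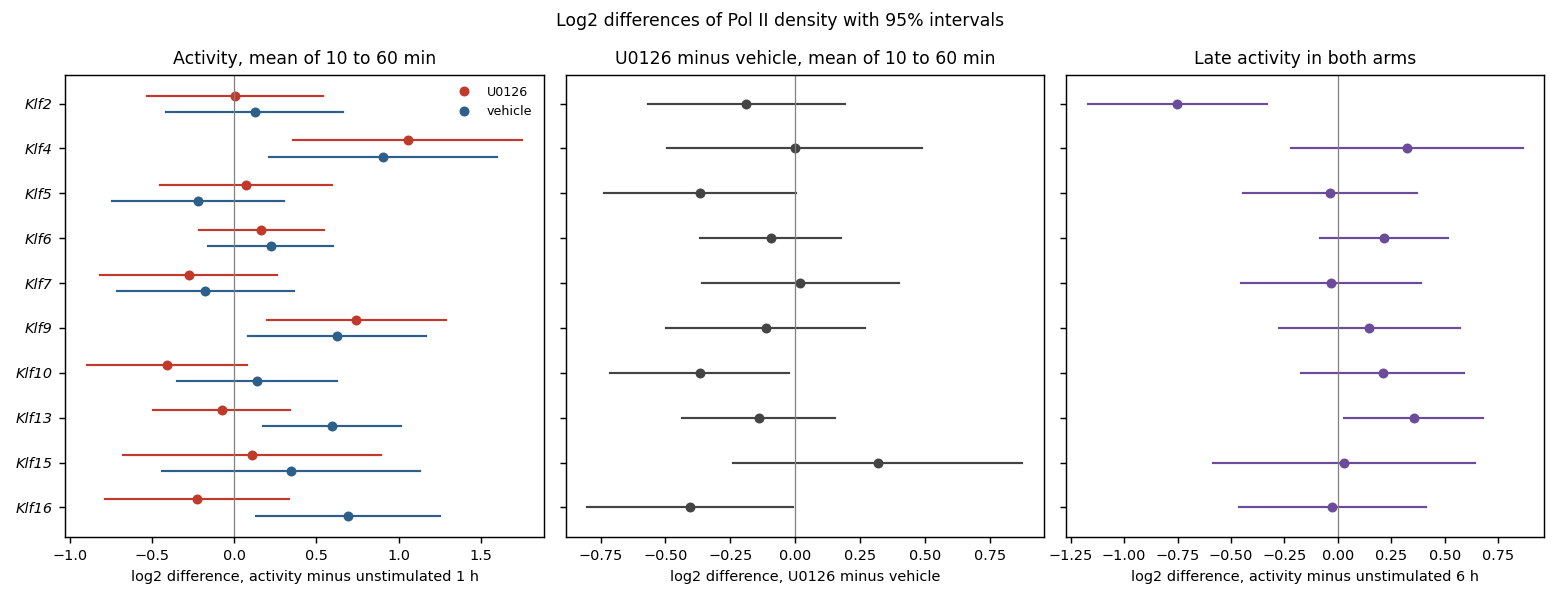
Log2 differences of Pol II density (x axes) for 10 Klf genes with 95% intervals (bars) from limma: activity at 10 to 60 min minus unstimulated neurons of 1 h in U0126 (red) and vehicle (blue), U0126 minus vehicle at 10 to 60 min, and activity at 180 and 360 min minus unstimulated neurons of 6 h over both arms. The intervals of Klf4 and Klf9 lie above 0 in both arms, those of Klf13 and Klf16 lie above 0 in vehicle and include 0 in U0126, and that of Klf2 lies below 0 late in activity.

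Klf13 and Klf16, which like Klf9 bind Sin3A, were above the unstimulated libraries with activity in vehicle and not in U0126. Klf13 had 1.33 and 1.34 at 10 min, 1.36 and 1.25 at 30 min and 1.29 and 1.10 at 60 min in U0126, against 1.22 and 1.43 without stimulation. In vehicle it had 1.76 and 1.44 at 10 min, 1.39 and 1.32 at 30 min and 1.30 and 1.37 at 60 min, against 0.743 and 1.02 without stimulation. All 6 vehicle libraries with activity were above both unstimulated ones, while in U0126 the groups overlapped. The mean log2 difference was -0.08 in U0126 (SE 0.205, adjusted p = 0.953) and 0.60 in vehicle (SE 0.205, adjusted p = 0.152). Without stimulation, U0126 minus vehicle was 0.53 (SE 0.252, unadjusted p = 0.0427, adjusted p = 1.00). Because the start site of Klf13 is in the set that normalized the libraries, its value is set against that set: of 656 control sites tested, 19 had a vehicle difference at or above that of Klf13, itself included, and the control sites ran between -1.16 and 0.97 with a median of 0.01.

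Klf16 had 0.975 and 0.870 at 10 min, 1.19 and 0.626 at 30 min and 0.734 and 0.476 at 60 min in U0126, against 0.821 and 1.02 without stimulation. In vehicle it had 1.55 and 0.659 at 10 min, 1.01 and 1.01 at 30 min and 1.41 and 1.08 at 60 min, against 0.599 and 0.606 without stimulation. All 6 vehicle libraries with activity were above both unstimulated ones, by a small margin for the lowest, and in U0126 the groups overlapped. Such a separation in vehicle was seen for Klf9, Klf13 and Klf16 among the 10 members and for 10.7% of all genes, and in U0126 for Klf9 alone and for 9.69% of all genes. The mean log2 difference of Klf16 was -0.22 in U0126 (SE 0.275, adjusted p = 0.875) and 0.69 in vehicle (SE 0.275, adjusted p = 0.223). The difference between the arms' responses was -0.92 for Klf16 (SE 0.389, unadjusted p = 0.0243) and -0.67 for Klf13 (SE 0.290, unadjusted p = 0.0272), and for both the limma adjusted p was 1.00. In unstimulated neurons of 1 h, U0126 minus vehicle was 0.51 for Klf16 (SE 0.337, unadjusted p = 0.138, adjusted p = 1.00), as it was 0.53 for Klf13. In those of 6 h the sign was opposite for Klf16, at -0.41. At 60 min, where limma called no gene and 2.5% of genes had an unadjusted p under 0.05, U0126 minus vehicle was -0.92 for Klf16 (SE 0.337, unadjusted p = 0.00968, adjusted p = 1.00). Late in activity the sign for Klf16 was opposite, with 0.11 at 180 min, where U0126 has 1 library, and 0.63 at 360 min (SE 0.337).

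Klf10, a Sin3A-binding factor that TGF-beta induces, had 1.41 and 1.35 at 10 min, 0.847 and 1.23 at 30 min and 0.917 and 1.03 at 60 min in U0126, against 1.86 and 1.18 without stimulation. In vehicle it had 1.47 and 2.01 at 10 min, 0.994 and 1.32 at 30 min and 1.39 and 1.91 at 60 min, against 1.26 and 1.35 without stimulation. Activity and unstimulated libraries overlapped in both arms. At 60 min both U0126 libraries of Klf10 were below both vehicle libraries, as they were for Klf5, Klf13 and Klf16 among the 10 members and for 12.5% of all genes. For Klf10 the difference at 60 min was -0.69 (SE 0.294, unadjusted p = 0.0242, adjusted p = 1.00), and over 10 to 60 min it was -0.37 (SE 0.170, unadjusted p = 0.0373, adjusted p = 0.999).

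**Figure D3:**
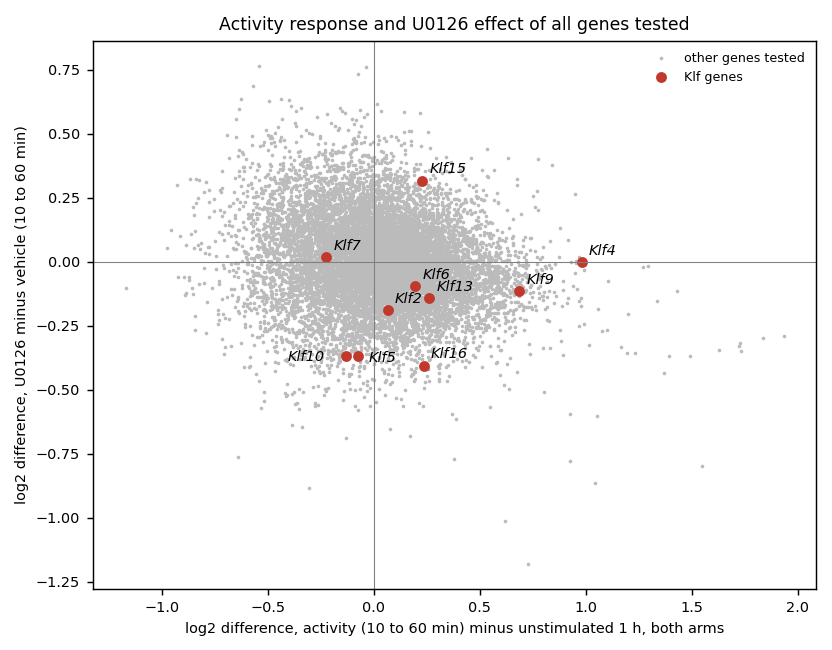
Each gene tested (grey) and the 10 Klf genes (red) by the log2 difference of activity at 10 to 60 min minus unstimulated neurons of 1 h over both arms (x axis) and by that of U0126 minus vehicle at 10 to 60 min (y axis). Klf4 and Klf9 lie farthest right of the family, at 0.98 and 0.69, and Klf16, Klf5 and Klf10 lie lowest, at -0.41, -0.37 and -0.37.

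Klf5, an activator known from epithelia and smooth muscle, had a mean density below vehicle in U0126 with and without activity. Over all conditions its 15 U0126 libraries had between 0.424 and 0.909 with a median of 0.687, and its 16 vehicle libraries between 0.643 and 1.32 with a median of 0.940. The ranges overlapped, but the group mean was lower in U0126 in 8 of 8 conditions, which held for Klf5 alone among the 10 members and for 0.711% of all genes. The log2 difference by condition was -0.66 in unstimulated neurons of 1 h, -0.36 at 1 min, -0.57 at 10 min, -0.25 at 30 min, -0.28 at 60 min, -0.11 in unstimulated neurons of 6 h, -0.41 at 180 min and -0.56 at 360 min. At 30 min Klf5 had 0.859 and 0.651 in U0126, against 1.32 and 0.643 in vehicle, so the sign there rested on replicate 1 in vehicle, the library with the most windows at 0. It was 0.19 without that library and 0.04 without both 30 min libraries of replicate 1. Averaged over the 8 conditions, a comparison chosen after the data were seen, it was -0.40 (SE 0.115, 95% interval -0.63 to -0.17, unadjusted p = 0.00139, adjusted p = 0.999). In that comparison 0 of 10 members were called by limma, against 0.0331% of genes, and 1 of 10 had an unadjusted p under 0.05, against 3.51% of genes. With activity, Klf5 differed from unstimulated neurons by 0.07 in U0126 (SE 0.257) and by -0.22 in vehicle (SE 0.257), and was not called in either.

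Klf2, which in mouse and human endothelium is induced through ERK5 and MEF2, had its lowest densities late in activity. It had 0.423 at 180 min and 0.642 and 0.627 at 360 min in U0126, against 1.00 and 1.14 in unstimulated U0126 neurons of 6 h. In vehicle it had 0.387 and 0.784 at 180 min and 0.454 and 0.650 at 360 min, against 0.748 and 0.953 in unstimulated neurons of 6 h. In U0126 the groups did not overlap, a separation seen for Klf2 alone among the members and for 6.14% of all genes, and in vehicle 1 library with activity lay above the lower unstimulated one. Over both arms and both times, a comparison chosen after the data were seen, the log2 difference was -0.75 (SE 0.206, 95% interval -1.17 to -0.33, unadjusted p = 8.84e-04, adjusted p = 0.235). Its rank was 40 of 12097 genes by p. In that comparison 0 of 10 members were called by limma, against 0.0413% of genes, and 2 of 10, Klf2 and Klf13, had an unadjusted p under 0.05, against 7.72% of genes. Klf13 had 0.35 there (SE 0.160, unadjusted p = 0.0339, adjusted p = 0.580). With the replicate number added as a block, Klf2 was called, as given in the closing section. The neuronal marker sum did not overlap in these libraries, with 13.4 to 13.6 in U0126 and 13.4 to 13.7 in vehicle late in activity, against 12.0 to 12.4 in U0126 and 11.3 to 12.3 in vehicle without stimulation for 6 h. The oligodendrocyte-lineage sum was 3.34 to 3.65 in U0126 and 2.84 to 3.80 in vehicle, against 3.52 to 3.86 in U0126 and 3.88 to 4.28 in vehicle, and was lower without overlap in vehicle. The endothelial sum was 1.24 to 1.43 late in activity, against 0.972 to 1.07 without stimulation, in U0126, and in vehicle the groups overlapped. The part of these markers in the late values was not tested. At 10 to 60 min Klf2 differed by 0.0056 in U0126 and by 0.13 in vehicle (SE 0.264 each), and neither was called.

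Klf6 and Klf7, which favour axon growth in rodent and zebrafish neurons, and Klf15 had no comparison with an unadjusted p under 0.05. Klf6 had between 1.64 and 2.74 in U0126 with a median of 2.52 and between 2.07 and 3.25 in vehicle with a median of 2.63 at 10 to 60 min, against 1.83 and 2.32 in U0126 and 1.97 and 2.30 in vehicle without stimulation. Its log2 difference over both arms was 0.19 (95% interval -0.08 to 0.46). Klf7 had between 0.736 and 1.29 in U0126 and between 0.610 and 1.44 in vehicle with activity, against 1.18 and 1.31 in U0126 and 1.05 and 1.23 in vehicle without it, and its difference over both arms was -0.23 (95% interval -0.61 to 0.15). Klf15 had between 0.289 and 0.521 in U0126 and between 0.0751 and 0.542 in vehicle with activity, against 0.332 and 0.362 in U0126 and 0.120 and 0.279 in vehicle without it. For these 3 genes libraries with and without activity overlapped in both arms.

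At single times in vehicle, limma called 0 of 10 members, and these comparisons share their unstimulated libraries within each set of times. At 1 min no gene was called (0%), and 3.43% of genes and 1 of 10 members, Klf13, had an unadjusted p under 0.05. At 10 min 0.19% of all genes were called and 9.6% had an unadjusted p under 0.05, as had 2 of 10 members, Klf9 and Klf13. At 30 min 1.42% of genes were called and 14.7% had an unadjusted p under 0.05, as had Klf4 and Klf13. The shares at 60 min were 0.157% and 10.7%, and the members were Klf4 and Klf16, with 0.85 for Klf16 (SE 0.337, adjusted p = 0.365). No gene was called at 180 min (0%), where 4.89% of genes and no member had an unadjusted p under 0.05. At 360 min again no gene was called, and 3.1% of genes and 1 member, Klf16, had an unadjusted p under 0.05. Klf16 then had 0.301 and 0.442 in vehicle, against 0.994 and 0.521 in unstimulated vehicle neurons of 6 h, a log2 difference of -0.80 (SE 0.337, adjusted p = 1.00).

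For U0126 minus vehicle at single times, limma also called 0 of 10 members. In unstimulated neurons of 1 h no gene was called (0%), and Klf5 and Klf13 had an unadjusted p under 0.05, as had 2.38% of all genes. At 10 min 0.00827% of genes were called, and 3.22% of genes and no member had an unadjusted p under 0.05. At 30 min none was called, and the unadjusted threshold was passed by 2.14% of genes and no member. Klf10 and Klf16 passed it at 60 min, as described above, and at 360 min no gene was called while 0.942% of genes and no member passed it.

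Across the family, the median log2 difference with activity at 10 to 60 min was 0.04 in U0126 and 0.28 in vehicle, beside medians over all genes tested of 0.03 and 0.02. Values were positive for 6 of 10 members in U0126 and 8 of 10 in vehicle (5 and 7 with quantile normalization), beside 53.9% and 52.3% of all genes. For U0126 minus vehicle the family median was -0.13, with 8 of 10 negative and 2 positive (7 and 3 with quantile normalization). Over all genes that median was -0.01, and 47.6% of the values were positive. Across the 16 group means of log2 density, Pearson's r between members was between -0.46 (Klf4 and Klf7) and 0.59 (Klf4 and Klf9). These points share libraries and their normalization, so the values are a description.

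The H3K27ac regions near Klf4 are 4, at mm9 chr4:55465970-55467620, chr4:55527360-55528540, chr4:55554150-55555350 and chr4:55559700-55560720, and lie 78552, 17397, 9403 and 14863 bp from the gene in the authors' table. H3K27ac signal is on a scale the files do not state. None of the 4 was called in any comparison, none of the 940 regions was called by limma (0%), and none of the 4 had an unadjusted p under 0.05. Among all regions, that p was reached by 4.15% for activity in U0126 and 4.04% for activity in vehicle over 10 to 60 min, and by 0.426% for U0126 minus vehicle. At single times in vehicle it was reached by 1.28% at 10 min, 4.26% at 30 min and 3.94% at 60 min, and by 0.319% for the difference between the arms' responses.

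The farthest region had 2.26 and 1.41 at 10 min, 2.73 and 0.862 at 30 min and 1.71 and 0.830 at 60 min in U0126, against 1.49 and 0.963 without stimulation. In vehicle it had 3.00 and 1.05 at 10 min, 2.64 and 1.02 at 30 min and 1.18 and 0.812 at 60 min, against 1.26 and 0.901 without stimulation. Replicate 1 stood above replicate 2 in all 8 groups, with means of 2.03 and 0.981, and libraries with and without activity overlapped in both arms. Set against the unstimulated library of the same arm and replicate number, signal was higher in 4 of 4 libraries at 10 min, which held for 9.68% of all regions, in 3 of 4 at 30 min and in 1 of 4 at 60 min. The labels tie these numbers to no shared culture, and this count was made after the data were seen. At 10, 30 and 60 min the same count was 1, 1 and 2 of 4 for the region at 17397 bp. It was 2, 0 and 3 of 4 for the region at 9403 bp, and 3, 2 and 2 of 4 for that at 14863 bp. The log2 difference over 10 to 60 min was 0.22 in U0126 (SE 0.392) and 0.35 in vehicle (SE 0.392).

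The region at 17397 bp had the opposite order of replicates, with means of 1.07 for replicate 1 and 2.26 for replicate 2. Its signal was 0.663 and 2.09 at 10 min, 0.617 and 3.48 at 30 min and 0.722 and 2.08 at 60 min in U0126, against 1.42 and 1.93 without stimulation. In vehicle it was 0.645 and 1.87 at 10 min, 1.08 and 1.91 at 30 min and 1.57 and 2.44 at 60 min, against 1.87 and 2.28 without stimulation. Libraries with and without activity overlapped in both arms, and the log2 difference was -0.19 in U0126 and -0.29 in vehicle (SE 0.459 each). In replicate 1 every library with activity was below the unstimulated one of its arm, while replicate 2 went both ways. The share of all regions with such an order in a single replicate number was not counted. For the 2 nearest regions, at 9403 and 14863 bp, the differences with activity were -0.09 and 0.07 in U0126 and 0.05 and -0.04 in vehicle. U0126 minus vehicle over 10 to 60 min was between -0.15 and 0.03 for the 4 regions. At 30 min in vehicle Klf4 Pol II had a log2 difference of 1.05 (SE 0.419). The 4 regions then had 0.52 (SE 0.480), -0.30 (SE 0.562), -0.05 (SE 0.282) and -0.15 (SE 0.246), in the order given above. Sizes cannot be compared between the 2 marks, since the pseudocount was 0.628 for H3K27ac and 0.148 for Pol II.

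**Figure D4:**
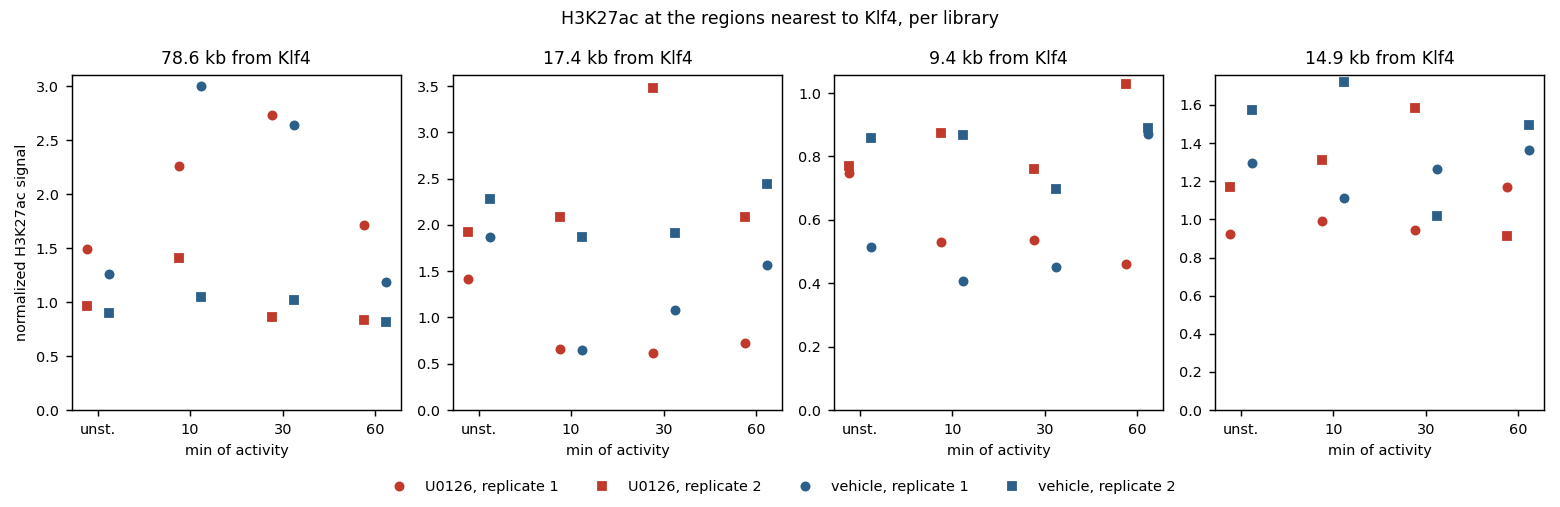
Normalized H3K27ac signal (y axis, each panel on its own scale from 0) at the 4 regions nearest to Klf4 by min of activity (x axis) in U0126 (red) and vehicle (blue), 1 point per library, with replicate 1 as circles and replicate 2 as squares. In the first region replicate 1 is above replicate 2 in every group, and no region separates libraries with activity from those without.

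The genes around the family were described from lists of factors that act with KLFs or on their genes. Of the 7 other Klf genes 3 were tested and none was called with activity in vehicle over 10 to 60 min, and Klf11 and Klf8 had the largest values (0.51 and -0.50). Of 9 Sp factors, which bind the same GC boxes, 5 were tested and none was called, with 0.64 for Sp1 and 0.53 for Sp2 and a list median of 0.51 beside 0.02 for all genes. Of 10 corepressors and coactivators 9 were tested and none was called, and Hdac2 and Ctbp2 had the largest values (0.59 and -0.41). All 6 ubiquitin ligases of KLFs were tested and none was called, with 0.64 for Fbxo32 and -0.50 for Fbxw7. Of 14 factors upstream of Klf genes 10 were tested and 1 was called, where 1.07% of all genes were called. This was Creb1, the cAMP response element binding protein, which rose by 0.90 (SE 0.186, adjusted p = 0.00939).

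Over both arms, none of the other 4 lists had a call, and 3 of the 10 upstream factors tested were called, where 6.13% of all genes were called. Creb1 rose by 0.77 (SE 0.131, adjusted p = 3.56e-04) and Mef2d, a MEF2 factor, rose by 0.67 (SE 0.178, adjusted p = 0.0181). Thra, the thyroid hormone receptor alpha, fell by 0.65 (SE 0.204, adjusted p = 0.0486). None of the 5 lists had a gene called by limma in U0126 alone, late in activity or for U0126 minus vehicle.

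Over the 16 group means, the genes whose Pol II course was most like that of Klf4 were Dgat1 (Pearson's r 0.91), Wsb1 (0.91) and Wnk1 (0.91). For Klf9 they were Dda1 (0.92), Marcksl1 (0.92) and Rps24 (0.91), and for Klf16 they were Atxn2l (0.82), Efnb2 (0.82) and Zkscan1 (0.81). The points share libraries and normalization, so these values are given as a description.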

How the data were processed

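ChIP-seq for Pol II (anti-RNAPol2, abcam ab817) and H3K27ac (abcam ab4729) was made from formaldehyde-fixed neurons with a NuGen kit, per the labels. The submitters' processing notes name Bowtie2, SAMtools, bedtools and mm9, with no version or setting. The deposited Pol II signal is a normalized density per start-site window, scaled by the authors with control start sites, per the file headers. The deposited H3K27ac signal is a normalized value per enhancer region with 1 sheet per replicate number, and distances to the nearest gene are in bp, per the file headers. Normalization to control sites removes any change common to those sites, Klf13 among them. Depth is unknown. The 5 inputs were not analysed here.

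For each of 24194 symbols, the window with the highest mean of 27815 was used, and the upper 50% of genes (12097) and all 940 regions were tested. Values were log2(signal + pseudocount), with the pseudocount at percentile 25 of positive values (0.148 for Pol II, 0.628 for H3K27ac), which makes changes of weakly bound genes smaller than their ratio. Each library was centred on its median. limma 3.58.1 in R 4.3.3 fitted a mean per group with a variance trend and no other term, with 15 and 8 residual degrees of freedom and 18.7 and 4.17 added by moderation. For U0126 at 180 min, with 1 library, the spread was taken from the other groups. The fit was tested on simulated data. Alternatives were other pseudocounts, values as deposited, quantile normalization, no filter, every window, a replicate block and leaving out each library. All members were named in every comparison, with their regions. Of each list, the genes called or otherwise the 2 largest changes were named. For the 3 members with the largest vehicle response, the 3 genes most correlated with each were named. The members, lists and tests were chosen with earlier results of these data known. Leaving out both 30 min libraries of replicate 1 was added after the data were seen, as were the averages over both arms and over 8 conditions.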

Additional observations from a re-analysis of the deposited data

How the results depend on the processing

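Of 208 member values, 27 had an unadjusted p under 0.05. None of these changed direction under any alternative or when any library was left out. They were picked for lying far from 0 beside their SE, and they share libraries, so a kept sign was likely beforehand. Of the other 181, none of them called, 42 changed sign under at least 1 alternative and 95 when a library was left out. The call of Klf4 over both arms held under every alternative other than leaving out 1 library, with adjusted p between 2.75e-04 and 0.0420. That of Klf9 was lost with quantile normalization (0.67, adjusted p = 0.0522) and held under the other alternatives of this kind, with adjusted p from 0.00156. Leaving out 1 library gave between 0.69 and 1.27 for Klf4 and between 0.56 and 0.81 for Klf9. Klf4 in vehicle at 30 min passed the threshold without vehicle replicate 2 of that time (1.64, adjusted p = 0.0440).

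The number of genes called moved by over 1.5 times as follows, and the causes were not tested. With quantile normalization it was 7 (vehicle, 10 min), 15 (30 min), 40 (10 to 60 min), 20 (activity in U0126), 272 (both arms) and 14 (late), and for U0126 minus vehicle 0 at 10 min, 1 at 360 min and 1 over 10 to 60 min, against 23, 172, 129, 44, 741, 5, 1, 0 and 2 as reported. Without the filter it was 5 (vehicle, 10 min), 76 (10 to 60 min), 7 (activity in U0126), 424 (both arms) and 3 (late), and for U0126 minus vehicle 0 at 10 min, 1 over 10 to 60 min and 2 over 8 conditions, against 4 as reported. As deposited it was 69 for activity in U0126, and 1 for U0126 minus vehicle, as also with the pseudocount at percentile 10 and with every window. Without both 30 min libraries of replicate 1 it was 9 for vehicle at 30 min and 0 for U0126 minus vehicle. For H3K27ac it was 1 for activity in U0126 with quantile normalization, and 1 in U0126 and 1 in vehicle with the upper 50% of regions, against 0.

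Leaving out 1 library gave 4 to 16 genes at 10 min in vehicle. It gave 9 to 578 at 30 min and 3 to 24 at 60 min in vehicle, 8 to 348 over 10 to 60 min, 5 to 122 for activity in U0126, 199 to 952 for both arms and 2 to 6 late. For U0126 minus vehicle it gave 0 to 4 at 10 min, 0 to 1 at 360 min, 0 to 3 over 10 to 60 min and 2 to 5 over 8 conditions. Leaving out the only U0126 library at 180 min gave no value.

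Groups share replicate numbers 1 and 2, which the labels tie to no shared culture or day. Deviations of same-numbered libraries correlated with r between -0.04 and 0.50 (median 0.26) for Pol II and between 0.28 and 0.89 for H3K27ac, and 30 of 30 and 16 of 16 libraries were nearer to their own number. In a group of 2 libraries the deviations from the mean mirror each other, so the libraries in these counts are not separate outcomes. With the replicate block, Klf4 passed in U0126 (1.06, adjusted p = 0.0244) and in vehicle (0.91, adjusted p = 0.0436), and Klf2 passed late in activity (-0.70, adjusted p = 0.0424). With the replicate block, genes called in vehicle were 1, 131, 662, 130, 4 and 2 at 1, 10, 30, 60, 180 and 360 min and 570 over 10 to 60 min, with 272 for activity in U0126, 1363 for both arms and 46 late. For U0126 minus vehicle the replicate block gave 2 at 10 min, 1 at 30 min, 1 at 360 min, 4 over 10 to 60 min and 8 over 8 conditions. For H3K27ac it gave 7 regions at 60 min and 2 over 10 to 60 min in vehicle, and 2 in U0126, none of them near Klf4, and for the farthest Klf4 region at 10 min in vehicle it gave 0.56 (unadjusted p = 0.0487, adjusted p = 0.794).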
